A study of Arabidopsis thaliana with 16 samples.

Results

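The cysteine-rich receptor-like kinase (CRK) genes of Arabidopsis thaliana were described under H2Aub and H3K27me3 peaks. They were taken as the nuclear protein-coding genes whose product description in the RefSeq annotation of the TAIR10.1 assembly contains cysteine-rich RLK or cysteine-rich receptor-like, which gave 41 of 27444 genes. Whole seedlings were harvested 12 days after germination, and chromatin immunoprecipitation followed by sequencing was made for H2Aub (3 ubp5 and 3 Col-0 libraries) and H3K27me3 (2 ubp5 and 2 Col-0 libraries). The ubp5 plants were a single line in which a pair of CRISPR/Cas9 guides had removed part of the DUSP and UBP domains of UBP5 in the Col-0 background. Col-0 was the wild type, and the labels name no other allele or treatment. Replicates were biological according to the study's methods. The peak lists cannot show the deletion itself, and 6 input samples were not analysed here.

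CRKs are receptor kinases of the plasma membrane. Outside the cell they carry cysteine-rich DUF26 repeats with a conserved spacing of cysteines, and inside the cell a serine/threonine kinase. Many of them are induced by pathogens, salicylic acid or reactive oxygen species, and several act in immunity, cell death and stress signalling. H2Aub is histone H2A carrying a single ubiquitin, which Polycomb repressive complex 1 adds and deubiquitinases such as UBP5 remove. H3K27me3 is the repressive methylation that Polycomb repressive complex 2 adds. The comparison of ubp5 with Col-0 asks where the marks lie when the deubiquitinase is damaged.

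The values are lengths of gene under peaks, in base pairs (bp), for peaks whose deposited score exceeded 30, and a gene counted as marked when at least 2 libraries of a genotype had a peak on it. The 3 ubp5 H2Aub lists held 16449, 9786 and 19014 such peaks, against 8457, 12049 and 14728 in the Col-0 lists. The H3K27me3 lists held 5302 and 5565 peaks in ubp5, against 4913 and 5746 in Col-0. The second ubp5 H2Aub library stood apart from the other ubp5 libraries, with a peak on 40.1% of all genes, against 69.4% and 78.8% in the other ubp5 libraries, so results that rest on it are also given without it. By the study's reporting summary this library also had the fewest uniquely mapped reads of all H2Aub libraries. With 3 libraries against 3 the exact two-sided permutation test cannot give a p under 0.1, and with 2 against 2 none under 0.33, so no single gene could pass a threshold of 0.05.

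The members clustered on chromosome 4. With at most 1 other protein-coding gene allowed between neighbours, 32 of the 41 lay in 5 tandem arrays, and with up to 5 allowed, 33 did. The largest array ran from CRK5 to CRK24 (chr4:12117491-12191704) and held 19 members over 74.2 kb. The others were CRK36 to CRK40 (5 members), CRK30 to CRK33 (4 members), CRK28 with CRK29, and CRK2 with CRK3 on chromosome 1. CRK17 is listed under the symbol EMB1290 and has CRK17 as a synonym. The annotated bodies of CRK16 and CRK17 share 1190 bp, those of CRK28 and CRK29 470 bp and those of CRK10 and CRK11 32 bp, and a peak on such a stretch counted for both genes. Of the 40 members with a coding sequence of at least 1000 bp, the closest relative in the family matched at 65.6% to 89.8% of bases.

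Most members share a gene plan, and 29 of them have 7 coding exons. AT4G20645 differs, with a length of 1336 bp, 2 coding exons and a coding sequence under 1000 bp. Whether it encodes a kinase was not examined. The product names by which they were chosen already call them cysteine-rich, so the plan is a description and not a test. Cysteine codons in the order of the DUF26 repeat, 3 of them with 8 and then 2 other codons between, occurred in 41 of 41 members. They matched 83 times, 75 of these in the first coding exon, and 37 members had exactly 2 such matches. Matches on the stretch shared by CRK16 and CRK17 counted for both genes, and genes outside the family were not searched. The stretches below are shown because they are the part of the gene on which most H2Aub peaks of the family lay. Each is read 5′ to 3′ on the coding strand from the TAIR10.1 genome, with the 3 cysteine codons in capitals.
CRK15, first repeat (chr4:12159965-12160063, minus strand): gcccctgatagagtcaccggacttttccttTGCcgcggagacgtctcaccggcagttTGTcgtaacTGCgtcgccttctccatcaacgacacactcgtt
CRK15, second repeat (chr4:12159623-12159721, minus strand): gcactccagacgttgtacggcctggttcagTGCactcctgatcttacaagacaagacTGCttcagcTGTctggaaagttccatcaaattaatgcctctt
CRK33, first repeat (chr4:6979052-6979150, plus strand): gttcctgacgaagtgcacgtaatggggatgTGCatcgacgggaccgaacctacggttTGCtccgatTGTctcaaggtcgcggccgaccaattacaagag
CRK33, second repeat (chr4:6979418-6979516, plus strand): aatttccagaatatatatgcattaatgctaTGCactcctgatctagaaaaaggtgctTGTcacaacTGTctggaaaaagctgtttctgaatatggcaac

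H2Aub marked most of the family in both genotypes. It marked 34 of 41 members (82.9%) in ubp5 and 33 of 41 (80.5%) in Col-0, where 69.0% of all nuclear protein-coding genes were marked in ubp5 and 46.8% in Col-0. Both genotypes marked 32 of the members (78.0%, against 43.9% of all genes). Per library, 34, 24 and 35 members carried a peak in ubp5, against 32, 33 and 35 in Col-0. In whole seedlings, fewer cells carrying a mark and less of it per cell cannot be told apart. The counts of the genotypes overlap, and the low one belongs to the second ubp5 library.

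**Figure D1:**
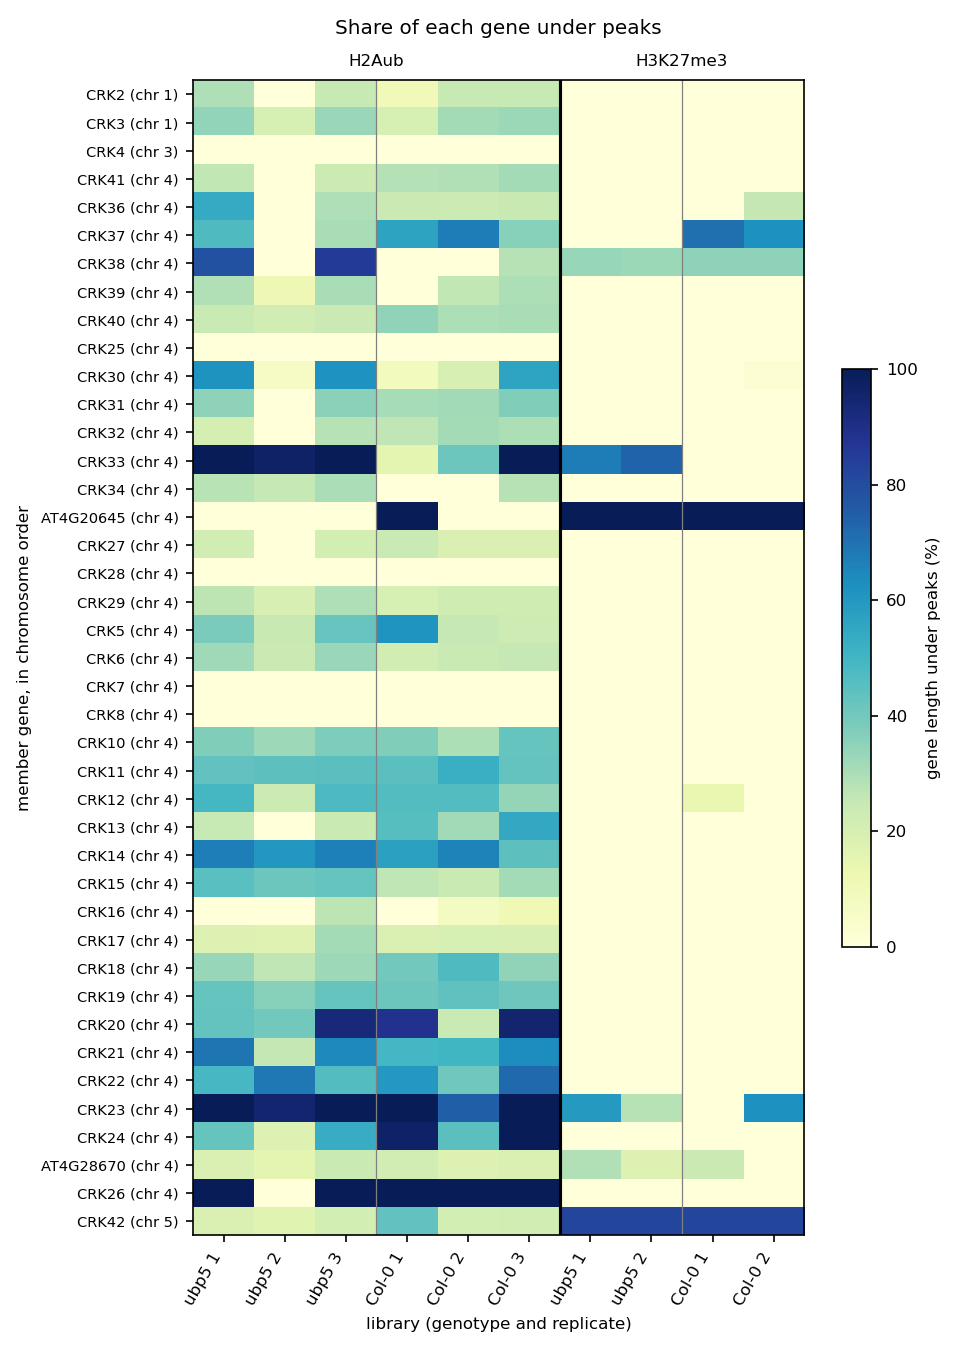
Share of each of the 41 member genes under peaks (colour, % of gene length) in each library (columns, ubp5 then Col-0 for H2Aub and for H3K27me3), with genes in chromosome order. H2Aub covered part of most members in both genotypes, 5 members had no peak in any of the 10 libraries, and H3K27me3 was limited to 10 members.

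The family took a larger share of H2Aub than genes at large, and that excess was smaller in ubp5. Of the members' summed length, 35.9%, 19.98% and 37.7% lay under H2Aub peaks in the 3 ubp5 libraries, against 32.5%, 28.7% and 36.3% in the 3 Col-0 libraries. Of all protein-coding genes, 28.1%, 14.6% and 32.6% of the length was covered in ubp5, against 14.3%, 18.9% and 25.4% in Col-0. The ratio of these shares, members over all genes, was therefore 1.28, 1.37 and 1.16 in ubp5, against 2.27, 1.51 and 1.43 in Col-0. The ratios of the genotypes do not overlap, while the members' own shares do. The median member had 27.5% of its length covered in ubp5 and 28.9% in Col-0, where the median over all genes was 22.2% in ubp5 and 9.04% in Col-0.

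Few members were marked in one genotype alone. Only in ubp5 were CRK34 and CRK38 marked (2 of 41, 4.88%, against 25.1% of all genes), and only in Col-0 was CRK16 (1 of 41, 2.44%, against 2.87%). Of the 8 members that were unmarked in Col-0, 2 were marked in ubp5, where 47.1% of all genes unmarked in Col-0 were. Of the 33 members marked in Col-0, 32 were marked in ubp5 too, where 93.9% of all such genes were. Without ubp5 replicate 1 or without ubp5 replicate 3, the count marked only in Col-0 was 10, where 16.3% and 16.4% of all genes were so called. Both of these sets rest on ubp5 replicate 2 and 1 other ubp5 library. They were the same 10 genes, CRK2, CRK13, CRK16, CRK26, CRK27, CRK31, CRK32, CRK36, CRK37 and CRK41. Without Col-0 replicate 2 or without Col-0 replicate 3 the count was 0.

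CRK34 had 815, 749 and 879 bp under H2Aub in ubp5, against 0, 0 and 824 bp in Col-0. CRK38 had 2254, 0 and 2435 bp in ubp5, against 0, 0 and 801 bp in Col-0. For CRK34 1 of 3 Col-0 libraries lay within the ubp5 range, and for CRK38, with no peak in ubp5 replicate 2, all 3 did. CRK16 had 0, 0 and 722 bp in ubp5, against 0, 197 and 300 bp in Col-0, and 556 bp of the 722 bp lay on the stretch it shares with CRK17. Its other covered bases in ubp5, and all of those in Col-0, lay under peaks that also covered the start of CRK15. No Col-0 peak lay on CRK16 alone.

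Covered length in every ubp5 library outside the Col-0 range was also rare. CRK15 was the only member longer in every ubp5 library (2.44%, against 13.7% of all genes), and 4 were shorter, CRK13, CRK18, CRK40 and CRK41 (9.76%, against 3.51%). Each of these 5 had an exact permutation p of 0.1, the smallest the design allows, and an adjusted p of 0.582 over 27444 genes. A call of shorter needs a peak on the gene in all 3 Col-0 libraries. Col-0 peaks lay on 78.0%, 80.5% and 85.4% of members, against 33.3%, 46.5% and 59.0% of all genes. The part of this in the share called shorter was not tested. Leaving out a library cannot undo a call of longer or shorter, so it is no check on the 5 genes called. Without the second ubp5 library 4 members were shorter (against 3.64% of all genes) and 11 were longer (against 36.9%). The 10 added by its removal were CRK3, CRK6, CRK12, CRK14, CRK21, CRK29, CRK30, CRK33, CRK36 and CRK38.

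CRK15 had 1106, 1008 and 1037 bp under H2Aub in ubp5, against 647, 586 and 760 bp in Col-0. Every ubp5 library was above every Col-0 library, and the means were 1050 ± 50.3 bp and 664 ± 88.3 bp (SD, n = 3 each; exact permutation p = 0.1). With a score above 60 it had 1106, 0 and 1037 bp in ubp5, against 0, 586 and 760 bp in Col-0, so the genotypes overlapped and no member was longer in every ubp5 library (5.56% of all genes were). With the score above 30, its peaks in ubp5 reached further into the gene from the start, with inner ends at 12159174, 12159272 and 12159243 on chromosome 4, against 12159633, 12159694 and 12159520 in Col-0. The second stretch of CRK15 printed above lay whole under the peak in 3 of 3 ubp5 libraries and in 1 of 3 Col-0 libraries, and its cysteine codons did in 3 of 3 ubp5 and 2 of 3 Col-0 libraries.

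CRK13, whose overexpression is known to cause cell death and pathogen resistance, had 734, 0 and 716 bp in ubp5, against 1355, 927 and 1622 bp in Col-0. The means were 483 ± 419 bp in ubp5 and 1301 ± 351 bp in Col-0 (SD, n = 3 each; exact permutation p = 0.1). CRK41 had 922, 0 and 831 bp in ubp5, against 1009, 1020 and 1100 bp in Col-0. CRK40 had 1051, 926 and 1023 bp in ubp5, against 1504, 1283 and 1312 bp in Col-0. CRK18 had 889, 700 and 857 bp in ubp5, against 1069, 1252 and 919 bp in Col-0. In these 4 genes every Col-0 library was above every ubp5 library.

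The members with the largest covered share in Col-0 were CRK26, CRK23 and CRK24. CRK26 was covered over its whole 2769 bp in all 3 Col-0 libraries and in ubp5 replicates 1 and 3, and had no peak in ubp5 replicate 2. It lay under a single peak of 5564 to 5811 bp in those libraries. With all deposited peaks CRK26 had 995 bp covered in ubp5 replicate 2. With a score above 60 it had 0 bp in ubp5 replicate 2 and in Col-0 replicate 1. With lists cut to equal covered length it had 0 bp in all 3 ubp5 libraries, against 2769 bp in all 3 Col-0 libraries. CRK23 had 3593, 3418 and 3593 bp in ubp5, against 3593, 2689 and 3593 bp in Col-0, of a gene of 3593 bp. CRK24 had 1111, 471 and 1396 bp in ubp5, against 2534, 1174 and 2616 bp in Col-0, and the ranges overlap.

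No peak of either mark was found in any of the 10 libraries on CRK4, CRK7, CRK8, CRK25 and CRK28 (5 of 41, 12.2%, where 14.8% of all genes had none). CRK4 is known to associate with the flagellin receptor FLS2, CRK7 to act against damage by apoplastic oxidants, and CRK28 to associate with the co-receptor BAK1. Closely related neighbours differed here. CRK6 and CRK7 match at 82.9% of coding bases, yet CRK6 had 1013, 754 and 1058 bp under H2Aub in ubp5, against 692, 774 and 808 bp in Col-0, and CRK7 had 0 in all. CRK28 and CRK29 match at 86.2%, yet CRK29 had 942, 693 and 1025 bp in ubp5, against 707, 790 and 793 bp in Col-0, and CRK28 had 0 in all. Reads had been kept only where they mapped to 1 place, and 10 of the 41 members held at least 1 stretch of 100 bases found elsewhere in the genome, against 6.81% of all genes. Such stretches made up 14.1% of the start positions in CRK8, 21.1% in CRK6 and 7.95% in CRK13. They made up 0% in CRK4, CRK7, CRK25, CRK28 and CRK29. The part of such stretches in the peaks was not tested.

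Other members with known roles carried H2Aub in both genotypes. CRK2, which acts on the NADPH oxidase RBOHD, had 840, 0 and 715 bp in ubp5, against 299, 722 and 716 bp in Col-0. CRK5, which enhances cell death and resistance when overexpressed, had 1052, 664 and 1146 bp in ubp5, against 1666, 688 and 619 bp in Col-0. CRK36, which acts with ARCK1 in abscisic acid responses, had 1601, 0 and 868 bp in ubp5, against 699, 687 and 731 bp in Col-0. The ranges of all of these overlap between the genotypes.

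H2Aub sat on the first part of the gene. Of the H2Aub-covered bases of members, 80.4%, 78.5% and 78.2% lay in the first 50% of the gene in ubp5, against 74.5%, 85.1% and 77.1% in Col-0. Over all genes with a peak the first 50% held 71.4%, 73.7% and 70.8% in ubp5, against 62.3%, 64.2% and 63.8% in Col-0. In the 29 members with 7 coding exons, the first coding exon, which averaged 854 bp, was covered over 72.3%, 41.2% and 75.1% in ubp5, against 54.0%, 60.5% and 69.9% in Col-0. The fourth was covered over 12.6%, 6.28% and 12.6% in ubp5, against 13.6%, 3.36% and 9.42% in Col-0. In most CRK genes the first exon encodes the signal peptide and the cysteine-rich repeats, and the later exons the kinase. The 29 members include CRK8, whose cysteine matches lay in coding exon 4. Of the 83 cysteine matches, 64, 39 and 67 lay whole under H2Aub peaks in ubp5, against 55, 58 and 62 in Col-0.

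**Figure D2:**
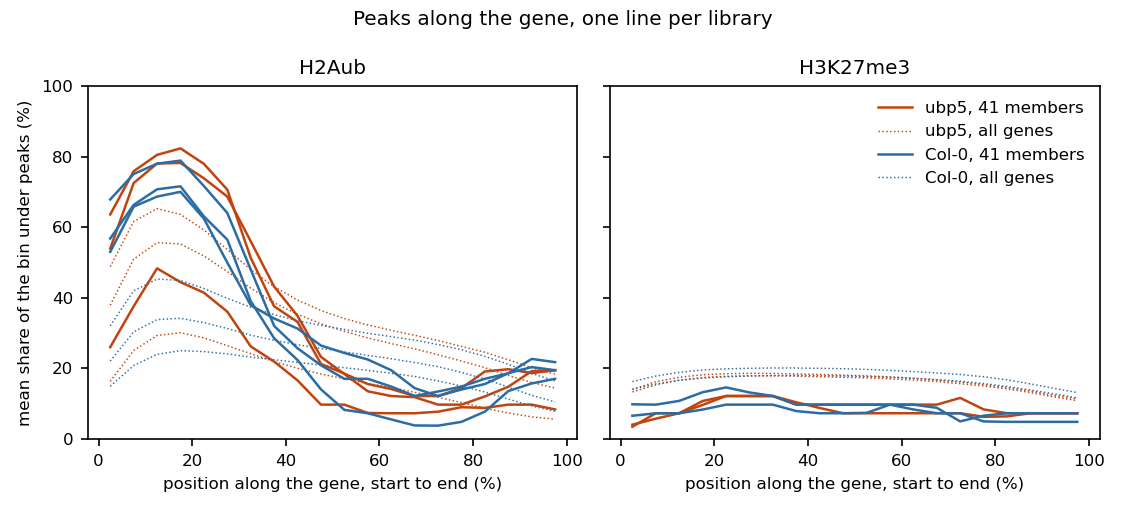
Mean share of each of 20 equal bins of the gene under peaks (vertical axis, %) from gene start to end (horizontal axis, %), 1 line per library, for the 41 members (solid) and all nuclear protein-coding genes (dotted). The H2Aub lines of members are highest in the first part of the gene in both genotypes, with the second ubp5 library below the rest, and the H3K27me3 lines of members lie below those of all genes.

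Coding sequence held 77.2%, 80.9% and 77.1% of the members' H2Aub-covered bases in ubp5, against 76.2%, 78.9% and 76.4% in Col-0, where it made up 65.9% of the members' length. Bases outside exons held 16.0%, 14.3% and 16.1% in ubp5, against 16.5%, 11.9% and 15.5% in Col-0, of 24.6% of the length. Wider peaks are more likely to touch a gene, and no other gene set was measured for this. Peaks on members had a larger median width than each whole list. Their median width was 1335, 974.5 and 1504.5 bp in ubp5, against 1589.5, 1066.5 and 1665 bp in Col-0, where the list medians were 957, 838 and 1003 bp in ubp5 and 1052, 966 and 1064.5 bp in Col-0. In the fold enrichment given by the authors' peak caller, the median peak on a member stood at percentiles 67.7, 57.2 and 62.5 of its list in ubp5, against 48.1, 62.1 and 65.1 in Col-0.

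In the CRK5 to CRK24 array H2Aub covered less of the space between the genes in every ubp5 library than in any Col-0 library. Of the bases of its members, 38.5%, 30.5% and 42.4% were covered in ubp5, against 43.1%, 34.1% and 43.3% in Col-0. Of the bases between the members, which include the gene EP1, 35.6%, 21.4% and 42.7% were covered in ubp5, against 52.8%, 52.0% and 56.6% in Col-0. The shares on the genes overlap between the genotypes, and those between the genes do not. Over all nuclear bases outside protein-coding genes, 8.05%, 2.696% and 12.3% were covered in ubp5, against 4.26%, 5.81% and 8.90% in Col-0, and these overlap.

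**Figure D3:**
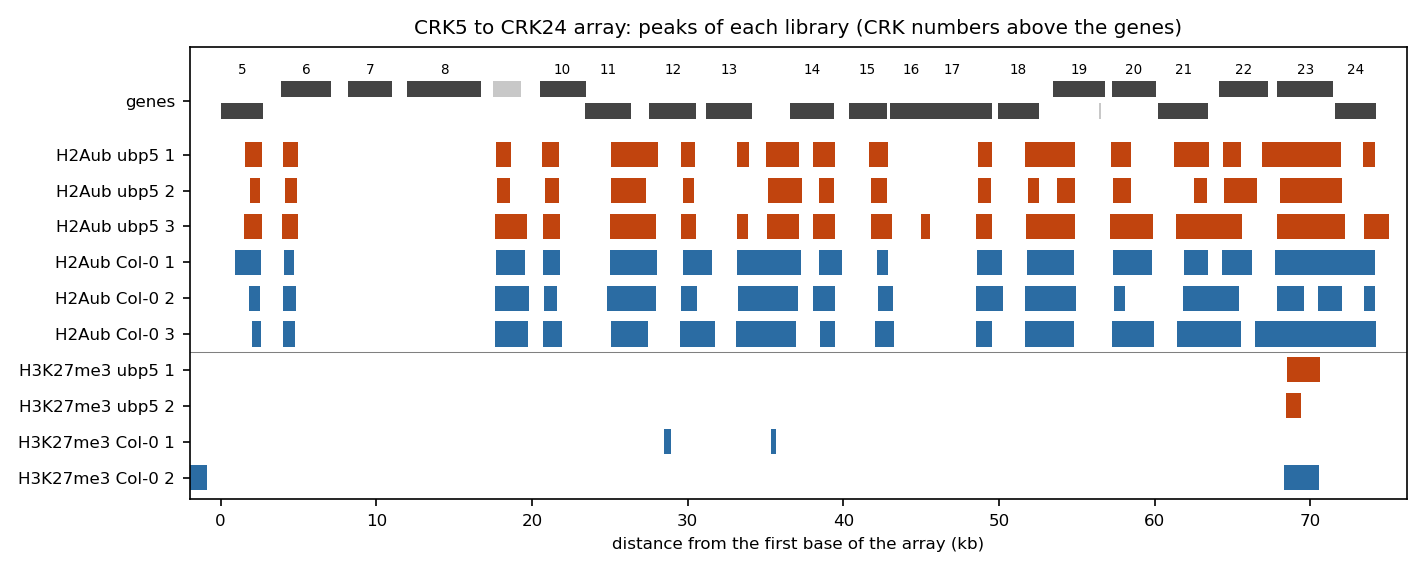
Peaks of each library (rows, ubp5 above Col-0 within each mark) along the CRK5 to CRK24 array, against distance from its first base (kb). Dark boxes are members, labelled with their CRK number, and grey boxes are other protein-coding genes, with plus-strand genes in the upper row. In the 3 Col-0 libraries 1 H2Aub peak joins CRK13 and CRK14, and in the ubp5 libraries the peaks there are separate.

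The difference between the genes was followed at the gene starts, a step chosen after the values were seen. In the 250 bp before the start, H2Aub covered less in every ubp5 library than in any Col-0 library for 4 of 41 members. They were CRK12, CRK13, CRK17 and CRK36 (9.76%, against 0.831% of all genes). H2Aub covered more in every ubp5 library for none of the 41 (against 2.68%). A call of less coverage needs a peak in the window in all 3 Col-0 libraries. Such windows were commoner among members. The Col-0 libraries had a peak in 46.34%, 43.9% and 63.41% of member windows, against 12.97%, 19.01% and 27.77% of all windows. The part of this higher Col-0 coverage in the share of members called was not tested. With 1 of the 6 H2Aub libraries left out, 4 genes were called, or 5 without Col-0 replicate 2. Leaving out a library cannot undo a call of less coverage, so this is no check on CRK12, CRK13, CRK17 and CRK36. Without ubp5 replicate 2 the windows of 2 members had more in ubp5, and without Col-0 replicate 3 the window of 1. The shares of all genes for these counts with 1 library left out are not given. With a score above 60 the calls for CRK12 and CRK36 were lost, since neither window had a peak in Col-0 replicate 1, and CRK13 and CRK17 were still called (2 of 41, against 0.594% of all genes). The window before CRK13 had 0 bp covered in all 3 ubp5 libraries, against 250 bp in all 3 Col-0 libraries. The window before CRK36 had 0 bp in all 3 ubp5 libraries, against 166, 250 and 250 bp in Col-0. The window before CRK12 had 0 bp in all 3 ubp5 libraries, against 250, 39 and 250 bp in Col-0. The window before CRK17 had 9, 0 and 4 bp in ubp5, against 250, 250 and 31 bp in Col-0.

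**Figure D4:**
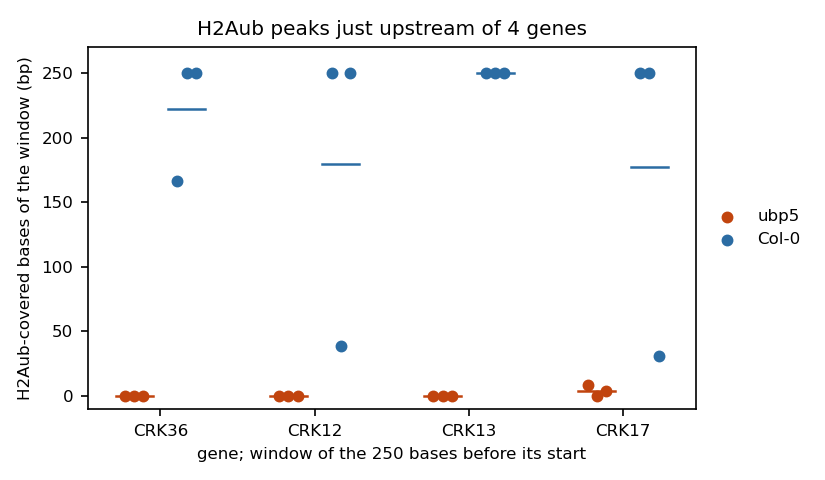
H2Aub-covered bases of the 250 bp before the start of 4 genes (vertical axis, bp), 1 point per library, with ubp5 left of Col-0 for each gene and a bar at the mean. The ubp5 libraries lie between 0 and 9 bp and the Col-0 libraries between 31 and 250 bp.

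At CRK13, 1 peak per Col-0 library ran on through the space to CRK14, over 4115, 3901 and 3802 bp, whereas no ubp5 peak joined them. CRK13 itself had peaks of 734 and 716 bp in ubp5 replicates 1 and 3, and none in replicate 2. Peaks that touched 2 or more members numbered 4, 1 and 7 in ubp5, against 6, 7 and 7 in Col-0. At the start itself, 18, 7 and 21 members were covered in ubp5, of 34, 24 and 35 with a peak, against 19, 18 and 26 in Col-0, of 32, 33 and 35. Over all genes with a peak, the start was covered in 43.2%, 30.6% and 49.9% in ubp5, against 36.0%, 38.3% and 44.7% in Col-0.

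The windows before 5 genes, chosen after their values were seen, are printed because the marks differed between the genotypes there or, at CRK11, did not. CRK11 is shown as the member whose window was covered over all 250 bp in all 6 H2Aub libraries and held 4 W-box matches. CRK37 is the only member whose window was less covered by H3K27me3 in both ubp5 libraries (0 and 0 bp) than in Col-0 (45 and 250 bp), where 2.93% of all genes were so called and 1.18% had more. Capitals mark the W-box, the letters TTGACC or TTGACT on either strand, which WRKY transcription factors are known to bind. The 2 matches in CRK37 share 1 base, and 2 of the 4 in CRK11 abut. Each window runs 5′ to 3′ toward the gene and comes from the TAIR10.1 genome with RefSeq gene starts.
CRK13 (chr4:12151639-12151888, minus strand): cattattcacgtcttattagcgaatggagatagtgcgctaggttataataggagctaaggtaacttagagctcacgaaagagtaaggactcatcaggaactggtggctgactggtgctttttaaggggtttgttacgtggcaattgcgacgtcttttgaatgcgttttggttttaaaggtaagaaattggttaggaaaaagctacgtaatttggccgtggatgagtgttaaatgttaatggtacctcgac
CRK36 (chr4:2234690-2234939, minus strand): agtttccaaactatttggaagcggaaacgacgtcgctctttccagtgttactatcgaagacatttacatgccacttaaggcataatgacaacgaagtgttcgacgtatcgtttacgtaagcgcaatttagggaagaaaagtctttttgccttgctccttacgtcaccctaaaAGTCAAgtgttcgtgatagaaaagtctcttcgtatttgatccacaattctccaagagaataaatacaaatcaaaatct
CRK17 (chr4:12167027-12167276, minus strand): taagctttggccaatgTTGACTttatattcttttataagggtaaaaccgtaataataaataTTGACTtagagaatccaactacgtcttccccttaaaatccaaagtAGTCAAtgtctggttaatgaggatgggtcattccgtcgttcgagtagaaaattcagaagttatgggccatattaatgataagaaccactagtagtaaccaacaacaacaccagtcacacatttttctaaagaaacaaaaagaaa
CRK37 (chr4:2238120-2238369, plus strand): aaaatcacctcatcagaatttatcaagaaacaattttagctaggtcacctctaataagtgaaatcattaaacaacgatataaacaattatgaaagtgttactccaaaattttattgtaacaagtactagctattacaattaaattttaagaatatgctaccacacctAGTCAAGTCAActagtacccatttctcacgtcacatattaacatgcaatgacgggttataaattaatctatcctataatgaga
CRK11 (chr4:12143859-12144108, minus strand): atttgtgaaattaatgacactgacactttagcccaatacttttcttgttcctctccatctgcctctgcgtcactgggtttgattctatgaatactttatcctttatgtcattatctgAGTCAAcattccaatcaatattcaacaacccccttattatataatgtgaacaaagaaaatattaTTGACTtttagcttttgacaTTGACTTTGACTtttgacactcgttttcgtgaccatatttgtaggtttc

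W-box letters stood in the window before 27 of 41 members (65.9%), against 28.4% of the windows of the same length before 27443 genes. The telobox AAACCCTA, a sequence that plant Polycomb recruiters are known to bind, stood before 0 of 41 members, against 4.49% of genes, and GAGAGAGA before 3 of 41 (7.32%), against 4.91%. Both strands were searched. These are letter matches in short windows.

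H3K27me3 marked few members. It marked 6 of 41 (14.6%) in ubp5 and 4 of 41 (9.76%) in Col-0, where 20.6% of all genes were marked in either genotype. CRK38, CRK42 and AT4G20645 were marked in both (7.32%, against 17.7%). Only in ubp5 were CRK23, CRK33 and AT4G28670 marked (3 of 41, 7.32%, against 3.00% of all genes), and only in Col-0 was CRK37 (2.44%, against 2.98%). With 2 libraries against 2, every one of these differences had an exact permutation p of 0.33 or more and an adjusted p of 1.

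**Figure D5:**
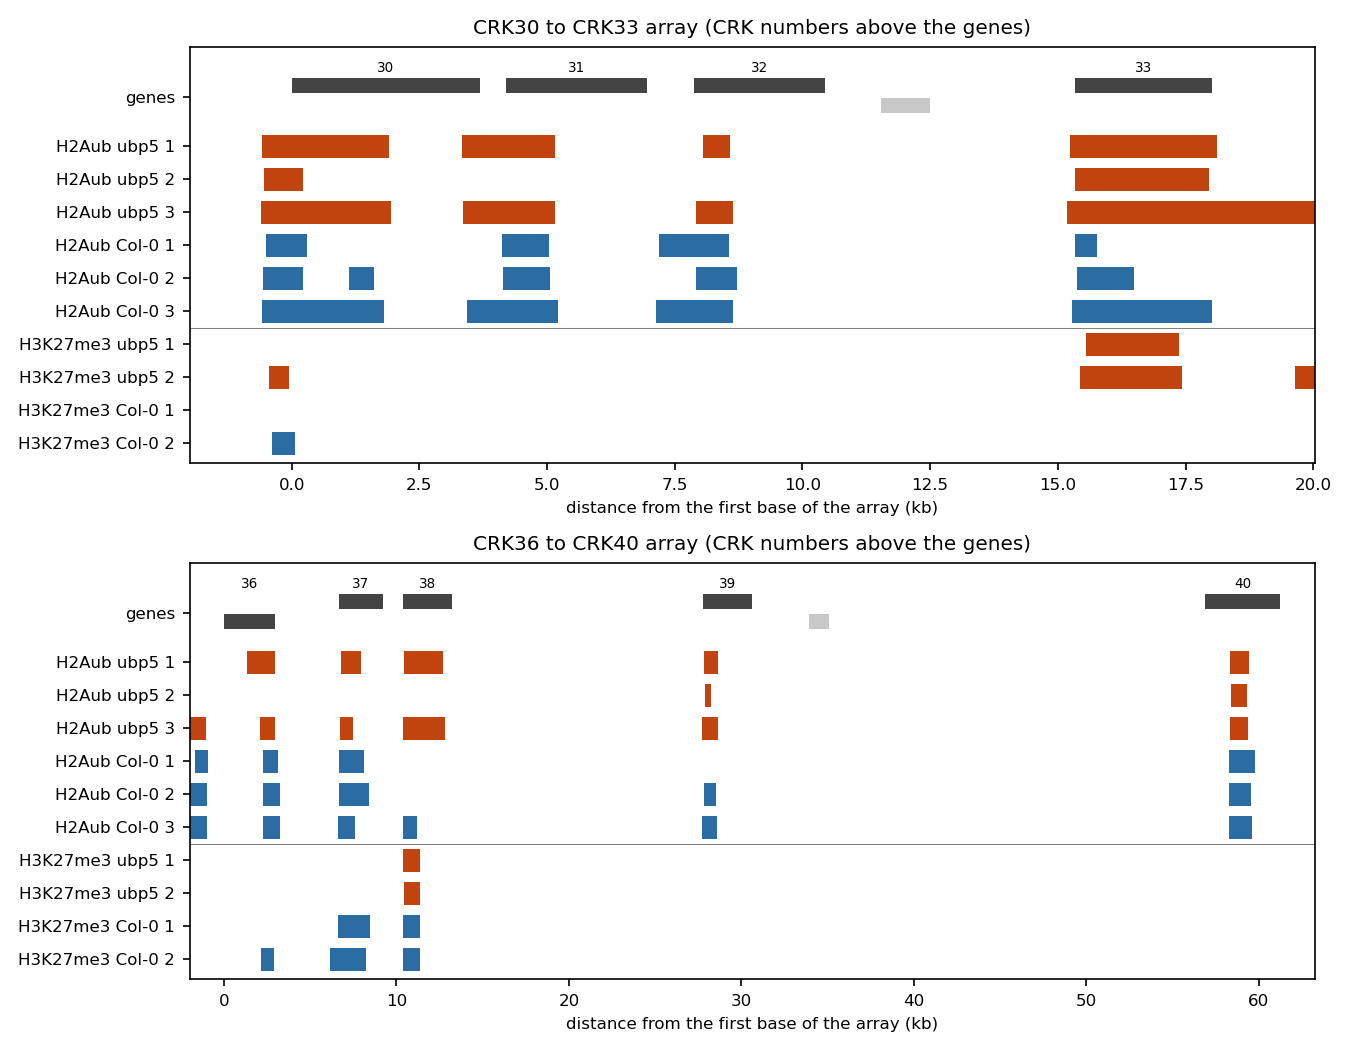
Peaks of each library (rows, ubp5 above Col-0 within each mark) along the CRK30 to CRK33 array and the CRK36 to CRK40 array, against distance from the first base of each array (kb). Dark boxes are members and grey boxes other protein-coding genes. H3K27me3 lies on CRK33 in the 2 ubp5 libraries and on CRK37 in the 2 Col-0 libraries, and on CRK38 in all 4.

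CRK33 had 1818 and 1990 bp under H3K27me3 in ubp5, against 0 and 0 bp in Col-0, and was the only member longer in both ubp5 libraries (2.44%, against 3.48% of all genes). CRK37 had 0 and 0 bp in ubp5, against 1797 and 1592 bp in Col-0, and was 1 of 2 members shorter in both ubp5 libraries (4.88%, against 8.10%). The other was CRK38, with 954 and 937 bp in ubp5, against 995 and 998 bp in Col-0.

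All of these peaks on CRK33 and CRK37 were among the weaker ones of their lists. By fold enrichment the CRK33 peaks stood at percentiles 11.26 and 1.53 of their lists in ubp5, and the CRK37 peaks at percentiles 2.06 and 9.76 in Col-0. When all deposited peaks were used, CRK33 had 1818 and 1990 bp in ubp5, against 1770 and 0 bp in Col-0, so the genotypes no longer separated by presence. CRK37 had 0 and 0 bp in ubp5 with all deposited peaks, against 1797 and 1592 bp in Col-0. With a score above 60 neither gene had an H3K27me3 peak in any library. With lists cut to equal covered length CRK37 had none either, and CRK33 had 1818 and 0 bp in ubp5, against 0 and 0 bp in Col-0, so neither was called.

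H2Aub on CRK33 and CRK37 overlapped between the genotypes. CRK33 had 2701, 2618 and 2701 bp under H2Aub in ubp5, against 420, 1113 and 2692 bp in Col-0, where Col-0 replicate 3 lay within the ubp5 range. CRK37 had 1201, 0 and 774 bp in ubp5, against 1445, 1722 and 924 bp in Col-0. The cysteine codons of both CRK33 stretches printed above lay under H3K27me3 in 2 of 2 ubp5 libraries and in 0 of 2 Col-0 libraries.

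AT4G20645, the short member with 2 coding exons, and CRK42 had the largest H3K27me3-covered shares in Col-0. CRK42, on chromosome 5, had 3024 and 3033 bp of its 3694 bp under H3K27me3 in ubp5, against 3033 and 3035 bp in Col-0. It carried H2Aub as well, with 697, 617 and 770 bp in ubp5, against 1588, 769 and 786 bp in Col-0. AT4G20645 was covered over all its 1336 bp in all 4 H3K27me3 libraries, inside peaks of 25330 and 21691 bp in ubp5 and 25420 and 22117 bp in Col-0. All of its stretches of 100 bases (100%) occur elsewhere in the genome, and their part in its coverage was not tested.

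In the largest array CRK23 was the only member marked by H3K27me3 in either genotype, and it lay next to members without a peak. CRK23 had 2147 and 1009 bp in ubp5, against 0 and 2245 bp in Col-0, while CRK22 and CRK24 had 0 in all 4 libraries. With all deposited peaks CRK24 had 0 and 0 bp in ubp5, against 970 and 1003 bp in Col-0, so the boundary between CRK23 and CRK24 was then absent in Col-0. The difference at CRK23 turned round to -113.5 bp without the first ubp5 library, to -667 bp without the first Col-0 library and to -1020 bp with all deposited peaks. AT4G28670 had 734 and 462 bp in ubp5, against 599 and 0 bp in Col-0. CRK12, CRK30 and CRK36 had a peak in 1 Col-0 library each and in no ubp5 library, of 402, 74 and 757 bp on the gene. Of these, CRK12 also lies in the largest array, between members with no H3K27me3 peak.

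The 2 marks together were found on 5 of 41 members in ubp5 (12.2%, against 15.3% of all genes) and on 2 of 41 in Col-0 (4.88%, against 14.2%). In ubp5 they were CRK23, CRK33, CRK38, CRK42 and AT4G28670, and in Col-0 CRK37 and CRK42. H2Aub without H3K27me3 was the commonest state, on 29 of 41 members in ubp5 (70.7%, against 53.7%) and on 31 of 41 in Col-0 (75.6%, against 32.5%). H3K27me3 without H2Aub was on 1 member in ubp5 (2.44%, against 5.35%) and on 2 in Col-0 (4.88%, against 6.39%). Neither mark was on 6 in ubp5 (14.6%, against 25.7%) and on 6 in Col-0 (14.6%, against 46.8%).

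Other receptor families chosen by product description were counted the same way. H2Aub marked 118 of 183 leucine-rich repeat kinases in ubp5 (64.5%) and 94 in Col-0 (51.4%). It marked 48 of 81 lectin kinases in ubp5 (59.3%) and 41 in Col-0 (50.6%), and 17 of 24 wall-associated kinases in ubp5 (70.8%) and 14 in Col-0 (58.3%). The 54 genes with the same cysteine-rich domain but no kinase were marked by H3K27me3 more often than by H2Aub in both genotypes. H2Aub marked 25 of them in ubp5 (46.3%) and 24 in Col-0 (44.4%), and H3K27me3 marked 32 in ubp5 (59.3%) and 39 in Col-0 (72.2%). Their median H3K27me3-covered share was 65.1% in ubp5 and 87.9% in Col-0, where that of the CRKs was 0% in both. No test was made between families.

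A list of 28 immune signalling genes was picked by name. Of these, 24 carried H2Aub in ubp5 (85.7%) and 21 in Col-0 (75.0%), and 7 carried H3K27me3 in ubp5 (25.0%) and 8 in Col-0 (28.6%). H2Aub was longer in every ubp5 library on 3 of them, EFR, CERK1 and FMO1 (10.7%, against 13.7% of all genes). It was shorter on 5, FLS2, SOBIR1, RBOHD, SAG101 and PEN3 (17.9%, against 3.51%). H2Aub marked 75.0% of the list in Col-0, against 46.8% of all genes, and the part of this in the shorter calls was not tested. H3K27me3 was shorter in both ubp5 libraries on 5, CBP60G, FMO1, PR1, PR2 and PR5 (17.9%, against 8.10%), and longer on 0 (against 3.48%). FLS2 and EFR are the receptors for bacterial flagellin and elongation factor, and RBOHD is the oxidase of the immune oxidative burst. Another 3 genes carry a CRK synonym or note but another product and are no members: RKF2 had no peak in any library, EP1 had 988, 809 and 1655 bp under H2Aub in ubp5, against 1645, 1663 and 1700 bp in Col-0, and ARCK1 had 1555, 0 and 1558 bp in ubp5, against 0, 0 and 1516 bp in Col-0.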

How the data were processed

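The authors sequenced ChIP libraries as paired-end reads, mapped them to TAIR10 with STAR 2.7.8a, excluded organellar reads, removed duplicates with Picard, kept uniquely mapped reads and called broad peaks per library against input with MACS3 3.0.0. The deposited files hold, per peak, a score (10 times the −log10 q-value, whole part, in all but 40 of 110088 peaks), the fold enrichment (a ratio), and −log10 p- and q-values, as the authors' peak caller wrote them. Depth per gene cannot be read from peaks. Peaks with a score above 30 were kept, which the study states for H2Aub-marked genes and which was applied here to H3K27me3 as well, and the covered bp of each of 27444 genes was counted on RefSeq TAIR10.1 annotation, whose 5 nuclear chromosomes hold all peaks. The labels call the samples replicates, and the study's methods call them biological. Genotypes were compared by exact two-sided permutation of mean covered length, adjusted by Benjamini-Hochberg over all genes. Members, lists and named genes (per mark and direction the 5 largest differences without overlap, the 3 largest Col-0 shares, and the H3K27me3 boundary in the largest array) were chosen with earlier results of these data known, and genes named beyond this after their values were seen. Scripts were tested on simulated peak lists and used Python 3.11.15 with NumPy 2.4.6, SciPy 1.17.1, Matplotlib 3.10.9 and Biopython 1.88. Alternatives were all peaks, a score above 60, lists cut to equal covered length (10.9 Mb for H2Aub, 14.2 Mb for H3K27me3), stricter overlap, a peak in every library, the replicate block and leaving out each library.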

Additional observations from a re-analysis of the deposited data

How the results depend on the processing

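Small counts moved often: of the counts under the alternatives, 84 stayed within 1.5 times and 50 did not. The share of all genes called under the same setting follows each count, except for the upstream and both-mark counts with 1 library left out. With all deposited peaks H3K27me3 marked 1 member in ubp5 alone (3.64%) and 5 in Col-0 alone (2.89%), was longer on 2 (4.79%) and shorter on 7 (9.503%), and both marks lay on 8 in Col-0 (16.4%). With a score above 60 H2Aub marked 4 in ubp5 alone (26.0%) and 5 in Col-0 alone (3.26%), was longer on 0 (5.56%), which ended the call for CRK15, and was shorter on 2 upstream windows (0.594%). There H3K27me3 marked 1 in ubp5 alone (2.42%) and was shorter on 1 (6.34%), and both marks lay on 1 in ubp5 (9.41%) and 1 in Col-0 (8.89%). With lists of equal covered length H2Aub marked 8 in Col-0 alone (9.56%), was longer on 2 (10.9%), shorter on 8 (6.43%) and shorter on 7 upstream windows (1.75%). There H3K27me3 marked 0 in Col-0 alone (1.93%) and was shorter on 1 (6.76%), and both marks lay on 3 in ubp5 (6.85%) and 1 in Col-0 (8.89%). With peaks over at least 50% of the gene H2Aub marked 4 in ubp5 alone (7.54%) and 4 in Col-0 alone (3.56%), H3K27me3 marked 1 in ubp5 alone (1.77%), and both marks lay on 1 in ubp5 (9.03%) and 1 in Col-0 (8.80%). With a peak in every library H2Aub marked 9 in Col-0 alone (8.62%). The cause was not tested.

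With the replicate block, H2Aub was longer on 3 (17.6%) and shorter on 8 (6.79%), and H3K27me3 longer on 2 (4.08%). Same-numbered H2Aub libraries deviated together at -0.13, 0.07 and 0.30 (correlation across genes), so the numbers were not taken as pairs.

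Leaving out 1 library, members marked by H2Aub in ubp5 alone numbered 1 to 3 (9.45% to 38.1%), and in Col-0 alone 0 to 10 (0.991% to 16.4%). H2Aub was longer on 1 to 11 (13.9% to 36.9%) and shorter on 4 to 8 (3.64% to 8.81%). Upstream it was longer on 0 to 2 and shorter on 4 to 5, and the shares of all genes for these upstream counts are not given. H3K27me3 marked 2 to 3 in ubp5 alone (2.16% to 4.01%) and 1 to 3 in Col-0 alone (2.16% to 5.17%), and was longer on 1 to 2 (3.82% to 6.05%) and shorter on 2 to 6 (8.78% to 13.03%). Leaving out a library cannot undo a call of longer or shorter, so those counts could not fall. Both marks lay on 4 to 5 in ubp5 and 2 to 5 in Col-0, again without a share of all genes. The H2Aub difference at CRK23 ran between -58.3 bp (without Col-0 replicate 2) and 394 bp. Its H3K27me3 difference ran between -667 bp (without Col-0 replicate 1) and 1578 bp, was -113.5 bp without ubp5 replicate 1, and was -1020 bp with all deposited peaks. Peak lists hold no read counts, so depth limits could not be computed from them. The study's reporting summary lists uniquely mapped reads per library, and among the H2Aub libraries ubp5 replicate 2 had the fewest. The part of depth in the results was not tested.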
